A study of Mus musculus with 23 samples.

Results

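The difference between endothelial cells and tumour cells in their response to 7 days of nintedanib was examined in 13 of the series' 23 expression arrays. For each gene the change in endothelial cells (short-term minus untreated) was taken, and the change in tumour cells (short-term minus untreated) was subtracted from it. A positive difference therefore means that the gene changed upward more, or downward less, in endothelial cells than in tumour cells. It was tested for 19938 genes, and 19 genes passed.

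The cells were FAC-sorted from tumours grown from Py2T, a murine breast cancer cell line, in the mammary fat pad of female FVB/N mice. Short-term endothelial cells (3 arrays) and short-term tumour cells (4 arrays) came from mice given nintedanib at 50 mg/kg body weight for 7 days. Untreated endothelial cells (3 arrays) and untreated tumour cells (3 arrays) came from mice without nintedanib. All tumours of the series derive from this 1 cell line, and the age of the mice is not given in the sources used here. The untreated tumours had been matched in size to tumours treated for 21 days, so 7 days of treatment and a difference in tumour size cannot be told apart. The labels call the arrays of a group biological replicates without naming the animals.

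Nintedanib is a small molecule that blocks the kinase domains of the VEGF, FGF and PDGF receptors. VEGF receptors sit mainly on endothelial cells, where they drive sprouting, led by tip cells, and the division of stalk cells behind them. PDGF receptors recruit pericytes to vessels, and FGF receptors are found on many cell types, carcinoma cells included. A drug of this class can reach tumour cells both directly through their receptors and by way of a changed blood supply.

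The values are log2 signals from Affymetrix arrays, processed by the authors with RMA, so 1 unit is a factor of 2 and a change is relative to what else the array detects. Pairs of arrays in a group correlated across genes at 0.935 to 0.962 in short-term endothelial cells, 0.959 to 0.973 in untreated endothelial cells, 0.990 to 0.993 in short-term tumour cells and 0.983 to 0.988 in untreated tumour cells. The median SD of a gene around its group means was 0.2554 in endothelial and 0.1557 in tumour arrays. The mean of 20 endothelial markers was 9.86 to 10.31 in short-term and 9.90 to 10.41 in untreated endothelial arrays, and 4.11 to 4.29 and 4.22 to 4.28 in short-term and untreated tumour arrays. The mean of 15 epithelial markers was 5.31 to 5.73 and 5.09 to 5.64 in short-term and untreated endothelial arrays, and 6.16 to 6.37 and 5.68 to 6.01 in short-term and untreated tumour arrays, a narrower separation. In sorted bulk samples, fewer cells of a type and less RNA per cell cannot be told apart.

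Of the 19 genes called for the difference, 6 had a positive and 13 a negative difference (limma over all 23 arrays, Benjamini-Hochberg adjusted p under 0.05). Calls made up 0.0953% of the genes tested, 0.0301% with a positive and 0.0652% with a negative difference. In 12 of the 19 genes the endothelial effect was at least 2 times the size of the tumour cell effect, 6 higher and 6 lower in short-term endothelial cells. These were 3 small nucleolar RNAs, Serpina3n, Rnf167 and Mir219a-2 on the higher side, and Kcnj2, Sez6l2, Ergic2, Slc35f2, Tmem63b and Zfp930 on the lower side. In 6 genes (Galnt3, Sema3c, Nes, Fermt1, Rbm47 and Esyt3) the tumour cell effect was the larger in the same sense, and all 6 were higher in short-term tumour cells. In Igfbp3 the effects were closer in size and opposite in sign. The absolute differences ran from 0.61 to 3.54, and 18 of the 19 were at least 2-fold. The median signal of an array ran from 4.4 to 4.55. Endothelial signals of Galnt3, Fermt1 and Rbm47 lay near or below that, and so did tumour cell signals of Serpina3n, Sez6l2, Slc35f2 and Kcnj2. Mir219a-2 was below it in both cell types. A small effect at such low signal does not show a lack of response.

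**Figure D1:**
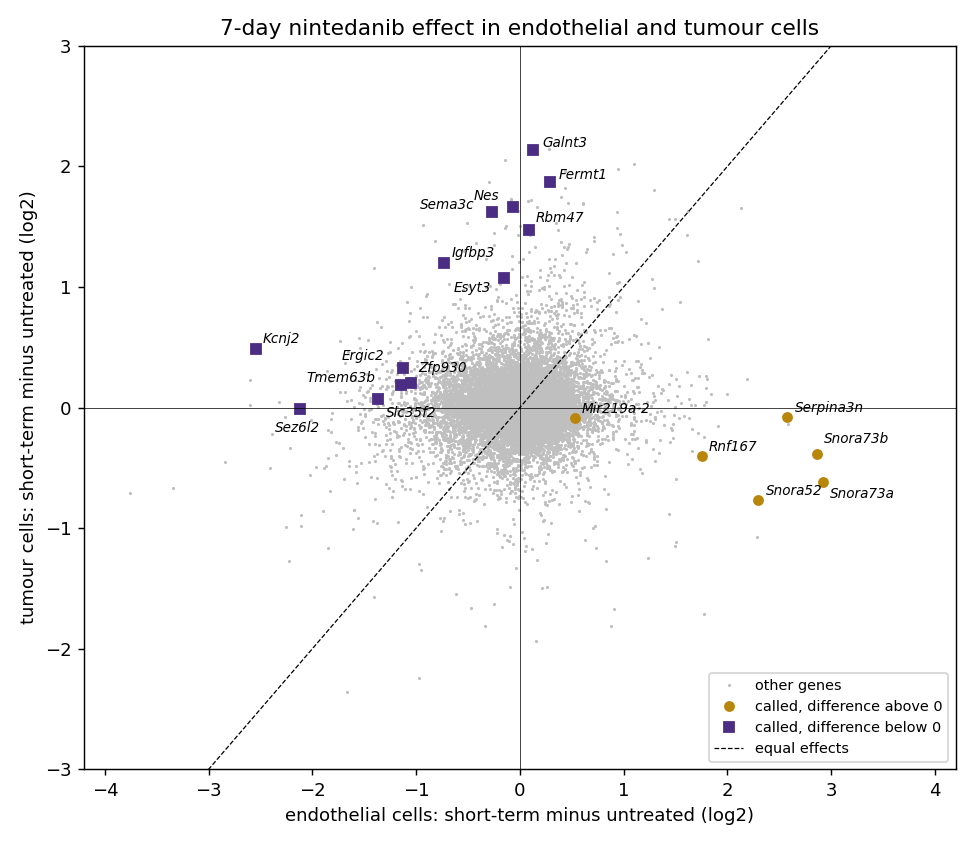
Short-term minus untreated log2 change in endothelial cells (x axis) against tumour cells (y axis) for 19938 genes, with the 19 genes called for the difference in colour and the dashed line at equal effects. Circles (6 genes, positive difference) lie to the right and squares (13 genes, negative difference) lie to the left of or above the line, most of them close to 1 of the 2 axes.

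The same fit called 106 genes (0.532%) for the endothelial effect, 51 higher (0.256%) and 55 lower (0.276%), and 30 genes (0.15%) for the tumour cell effect, 26 higher (0.13%) and 4 lower (0.0201%). After median centring the endothelial calls were 38 higher and 62 lower. With the arrays of each cell type in a fit of their own, limma called 0 genes in endothelial cells, with 1629 at an unadjusted p under 0.05, and 101 in tumour cells. With a weight per cell type in the fit over all arrays it called 17 and 177. Without single arrays the endothelial count was 171 (untreated replicate 2), 54 (untreated replicate 3) and 217, 800 and 180 (short-term replicates 1, 2 and 3), and the tumour cell count was 16 without untreated replicate 3. Over all genes the median difference was 0.06, and 58.7% of the differences were positive.

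The count of 19 moved with single arrays as well. It was 138 without short-term endothelial replicate 2, and all 19 genes were among the 138. It fell to 12 and 11 without short-term endothelial replicates 1 and 3, 9 without untreated endothelial replicate 3 and 10 without long-term endothelial replicate 4. Leaving out tumour cell arrays gave 6, 6 and 4 (short-term replicates 1, 2 and 4), 7, 1 and 1 (untreated replicates 1, 2 and 3) and 5 and 9 (long-term replicates 2 and 3). Galnt3 was called in all 23 fits that left out 1 array, and Ergic2, Snora73a and Snora73b in 21 each. With a weight per cell type for the unequal spread, 10 of the 19 genes stayed called, 9 of the 12 with the larger endothelial effect and Galnt3. With the immediate early gene mean as a covariate 3 genes were called, and 0 of the 19 were among them. That mean was 8.44 to 8.86 in short-term and 7.84 to 8.18 in untreated endothelial arrays. In tumour arrays it was 9.17 to 9.60 and 8.57 to 8.99. Neither pair of groups overlapped, so this covariate and treatment cannot be told apart in the contrast. Of the other called genes, Sema3c stayed called in 15 of the 23 fits that left out 1 array, Rbm47, Tmem63b and Zfp930 in 14 each, and Fermt1, Nes, Serpina3n and Snora52 in 11 each. Rnf167 and Slc35f2 did so in 9 each, Mir219a-2 in 8, Sez6l2 in 7, Esyt3 in 5, and Igfbp3 and Kcnj2 in 4 each.

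The largest positive differences belonged to small nucleolar RNAs of the H/ACA class, which guide the modification or cleavage of ribosomal RNA precursors. Snora73a had log2 signals of 9.13, 8.12 and 8.69 in short-term endothelial cells, against 5.12, 6.45 and 5.61 in untreated endothelial cells. In tumour cells it had 7.27, 7.58, 7.20 and 7.74 on the short-term arrays, against 8.02, 8.05 and 8.13 on the untreated ones. Both cell types separated their groups without overlap, in opposite directions. The endothelial effect was 2.92 ± 0.41 (SE, 7.57-fold), the tumour cell effect -0.62 ± 0.39, and the difference 3.54 ± 0.56 with an adjusted p of 0.0224 by limma.

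Snora73b, a near-identical copy, had 8.61, 7.62 and 8.17 in short-term endothelial cells, against 4.52, 5.67 and 5.62 in untreated endothelial cells. Its tumour cell signals were 7.58, 7.53, 7.53 and 7.78 after 7 days and 7.89, 8.08 and 8.0 without treatment. The pattern matched that of Snora73a, and because probes for such copies can share targets, the pair may be 1 measurement rather than 2. The difference was 3.25 ± 0.52 (adjusted p = 0.0224). Both RNAs lie within Snhg3, a host transcript not analysed here.

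Snora52 had 9.24, 7.48 and 6.81 in short-term endothelial cells, against 6.22, 5.02 and 5.39 in untreated endothelial cells. On tumour cell arrays the signals were 9.62, 9.82, 9.70 and 9.43 in the short-term group, against 10.31, 10.37 and 10.56 in the untreated group. The short-term endothelial arrays spread widely but stayed above all untreated ones. The difference was 3.07 ± 0.56 (adjusted p = 0.0383), composed of 2.30 ± 0.41 in endothelial and -0.77 ± 0.38 in tumour cells. Rplp2, the ribosomal protein gene whose locus holds Snora52, had a difference of 0.06 ± 0.21. Among all 54 small nucleolar and Cajal body RNAs measured, a group chosen after these values were seen, 31 had positive differences. Their median was 0.36, with medians of 0.08 in endothelial and -0.36 in tumour cells, and their range was -2.01 to 3.54. At an unadjusted p under 0.05, 11 were higher and 2 lower, where 6.83% and 4.22% of all genes were. The 11 include the 3 called RNAs that prompted the choice of this group, so their number follows in part from that choice.

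Serpina3n, a secreted serine protease inhibitor of the acute phase response, had 8.54, 7.92 and 8.63 in short-term endothelial cells, against 4.83, 6.72 and 5.79 in untreated endothelial cells. Tumour cells held 3.82, 3.90, 4.43 and 4.37 in the short-term arrays and 4.02, 4.34 and 4.27 in the untreated ones. The endothelial groups did not overlap and the tumour cell groups did. In endothelial cells the effect was 2.58 ± 0.35 (5.98-fold), in tumour cells -0.08 ± 0.33, and the difference 2.66 ± 0.48 (adjusted p = 0.0383). Of the 13 measured acute phase genes it was the single one called, and the list median was -0.14.

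Rnf167, a RING-type ubiquitin ligase of endosomal and lysosomal membranes, had 8.54, 7.94 and 8.76 in short-term endothelial cells, against 6.90, 6.67 and 6.41 in untreated endothelial cells. The tumour cell signals were 7.22, 7.47, 7.41 and 7.47, against 7.73, 7.90 and 7.76 untreated. Neither pair of groups overlapped, and their order was opposite in the cell types. The difference was 2.16 ± 0.40 (adjusted p = 0.0391), and the endothelial effect alone was 1.75 ± 0.29. With the immediate early gene mean as a covariate the difference was 1.15. In RefSeq its locus overlaps Slc25a11, so the signal may not be of Rnf167 alone.

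The sixth positive difference was small. Mir219a-2, a precursor of a microRNA known for its part in oligodendrocyte maturation, had 3.95, 4.19 and 3.90 in short-term endothelial cells, against 3.47, 3.55 and 3.44 in untreated endothelial cells, low values on a scale from 1.93 to 14.06. Tumour cells had 3.70, 3.5, 3.69 and 3.65 after treatment and 3.64, 3.73 and 3.79 without it. The difference was 0.61 ± 0.11 (1.53-fold, adjusted p = 0.0391). The locus overlaps Cercam and Mir219b, and what the probes detect is a transcript of this locus rather than the mature microRNA. The mature strand that gives the gene its name is shown with its seed, bases 2 to 8, in capitals (RefSeq, GRCm38.p6, chr2:29845689-29845709, minus strand).
mmu-miR-219a-5p: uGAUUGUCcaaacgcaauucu

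Among the 6 genes lower in short-term endothelial cells, the largest difference was that of Kcnj2, which encodes the inward rectifier potassium channel Kir2.1, a setter of the endothelial resting potential. It had 5.53, 7.46 and 5.55 in short-term endothelial cells, against 8.42, 8.82 and 8.94 in untreated endothelial cells. In tumour cells, at low signal, it had 3.64, 3.40, 3.45 and 3.37, against 3.02, 3.01 and 2.90 untreated. Both pairs separated, and short-term endothelial replicate 2 stood between its companions and the untreated arrays. The endothelial effect was -2.55 ± 0.43 (5.85-fold lower), and the difference -3.04 ± 0.58 had an adjusted p of 0.0484. With the immediate early covariate the difference was -1.58.

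Sez6l2, a transmembrane protein gene best known from neurons, had 4.31, 5.68 and 4.45 in short-term endothelial cells, against 6.23, 7.31 and 7.26 in untreated endothelial cells. Tumour cell arrays lay between 3.92 and 4.17 in both groups. Replicate 2 was again the highest of the short-term endothelial arrays. The endothelial effect was -2.12 ± 0.29 (4.35-fold lower), and the difference was -2.11 ± 0.39 (adjusted p = 0.0414), or -1.10 with that covariate.

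Ergic2 encodes a component of vesicle transport between the endoplasmic reticulum and the Golgi apparatus. Its signals were 5.02, 5.35 and 5.22 in short-term endothelial cells, against 6.34, 6.24 and 6.39 in untreated endothelial cells. For tumour cells they were 7.07, 7.10, 7.41 and 7.10, against 7.02, 6.84 and 6.65 untreated. Here the endothelial arrays were tight within each group and far apart between groups, while the tumour cell groups were separate by a small margin. The difference was -1.45 ± 0.21 (adjusted p = 0.0119), from -1.12 ± 0.15 in endothelial and 0.33 ± 0.14 in tumour cells, and it was -0.92 with the immediate early covariate. The locus overlaps Far2 in RefSeq.

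Slc35f2, a solute carrier of the nucleotide sugar transporter family, had 3.66, 3.94 and 3.35 in short-term endothelial cells, against 4.58, 5.38 and 5.08 in untreated endothelial cells. Tumour cell values stayed between 3.13 and 3.37. Its difference of -1.43 ± 0.26 (adjusted p = 0.0383) came almost wholly from the endothelial effect of -1.36 ± 0.19. Tmem63b, an osmosensitive cation channel gene, had 6.41, 6.87 and 6.22 in short-term endothelial cells, against 7.35, 7.60 and 8.01 in untreated endothelial cells. Its tumour cell signals of 8.22, 7.87, 8.05 and 8.23, against 7.97, 7.85 and 7.90 untreated, overlapped. The difference was -1.33 ± 0.23 (adjusted p = 0.0367), with a tumour cell effect of 0.18 ± 0.16, and the locus overlaps Mrpl14. Zfp930, a zinc finger protein gene, had 4.80, 5.06 and 4.79 in short-term endothelial cells, against 5.92, 5.67 and 6.21 in untreated endothelial cells. Tumour cells had 5.97, 5.93, 6.22 and 5.96, against 6.20, 5.68 and 5.56 untreated, also with overlap. The difference was -1.25 ± 0.22 (adjusted p = 0.0367).

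None of the 12 endothelial effects just described passed in the fit of the 11 endothelial arrays alone, where their adjusted p-values ran from 0.244 (Ergic2, Snora73b and Zfp930) to 0.381 (Snora52). Macrophage markers moved with the same endothelial arrays: the mean of 19 markers was 4.40 to 4.78 in short-term and 5.24 to 7.16 in untreated endothelial arrays, against 4.12 to 4.83 and 4.35 to 4.85 in short-term and untreated tumour arrays. RMA values have no 0, so absence of a marker cannot be read from them. With the marker mean as a covariate in each cell type, 4 genes were called, among them Ergic2, Galnt3 and Rnf167. The endothelial ranges of that mean did not overlap, so this covariate and treatment cannot be told apart there. Without the 3 endothelial arrays highest in these markers, an alternative added after seeing the data, 28 genes were called and 13 of the 19 remained. These arrays were untreated replicate 1 and long-term replicates 3 and 4, of which only the untreated one belongs to the 7-day contrast. The remaining untreated endothelial arrays, at 5.38 and 5.24, still lay above all short-term ones.

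The 6 genes with the larger tumour cell effect were all higher in short-term tumour cells, and each also passed for the tumour cell effect, in the fit over all arrays and in that of the 12 tumour cell arrays alone. Galnt3 starts mucin-type O-glycosylation of secreted and membrane proteins in the Golgi apparatus. It had 6.77, 6.65, 6.73 and 6.86 in short-term tumour cells, against 4.85, 4.62 and 4.39 in untreated tumour cells. In endothelial cells it had 4.40, 4.15 and 4.17, against 4.18, 4.08 and 4.08 untreated. The treated tumour cell arrays lay within a narrow band far above every other array of the comparison. The tumour cell effect was 2.14 ± 0.16 (4.39-fold, adjusted p = 4.82e-07), the endothelial effect 0.13 ± 0.17, and the difference -2.01 ± 0.23 had the smallest adjusted p of all genes, 0.000805.

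Fermt1 encodes kindlin-1, an activator of integrins in epithelial cells. It had 6.35, 5.69, 5.13 and 5.55 in short-term tumour cells, against 3.82, 3.82 and 3.79 in untreated tumour cells. Endothelial arrays lay between 3.46 and 4.0 in both groups. The untreated tumour cells were therefore at the same signal as endothelial cells, and the treated ones were above both. The effect in tumour cells was 1.87 ± 0.19 (3.66-fold), and the difference -1.58 ± 0.28 (adjusted p = 0.0383).

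Nes encodes nestin, an intermediate filament protein of progenitor cells that is also made by endothelial cells of growing vessels. Tumour cells had 6.52, 6.47, 6.04 and 6.17 in the short-term group, against 4.30, 4.88 and 4.73 in the untreated group. Endothelial signals were 9.03, 9.48 and 9.37, against 9.32, 9.31 and 9.44 untreated. The gene was thus far higher in endothelial cells throughout, where its groups overlapped. The difference was -1.73 ± 0.31 (adjusted p = 0.0383), with 1.66 ± 0.21 (3.17-fold) in tumour cells and -0.06 ± 0.23 in endothelial cells.

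Sema3c encodes a secreted semaphorin that signals through neuropilins and plexins. It had 7.58, 7.72, 7.23 and 7.52 in short-term tumour cells, against 5.85, 5.81 and 6.02 in untreated tumour cells. Endothelial arrays had 4.32, 4.11 and 4.58 after treatment and 4.62, 4.49 and 4.70 without it, with overlap. The tumour cell effect was 1.62 ± 0.22 (3.07-fold) and the difference -1.89 ± 0.33 (adjusted p = 0.0367). Nrp1, the neuropilin that serves both semaphorins and VEGF, had 8.78, 8.97, 8.46 and 8.88 in short-term tumour cells, against 7.12, 7.46 and 7.26 in untreated tumour cells. That effect, 1.49 ± 0.25, was called in tumour cells (adjusted p = 0.0106). The endothelial effect of Nrp1 was -0.14 ± 0.27, and its difference of -1.63 ± 0.37 did not pass (adjusted p = 0.118).

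Rbm47, an RNA-binding protein gene of splicing and RNA editing, had 5.29, 4.58, 4.91 and 5.13 in short-term tumour cells, against 3.56, 3.62 and 3.32 in untreated tumour cells. Every endothelial array had between 3.18 and 3.76. The difference was -1.39 ± 0.24 (adjusted p = 0.0367) and the tumour cell effect 1.48 ± 0.17. Esyt3, which encodes a lipid transfer protein at contacts of the endoplasmic reticulum with the plasma membrane, had 7.38, 7.32, 6.86 and 7.33 in short-term tumour cells, against 6.02, 6.39 and 6.02 in untreated tumour cells. Endothelial arrays had between 4.98 and 5.53. The difference was -1.23 ± 0.23 (adjusted p = 0.0442). The loci of Rbm47 and Esyt3 overlap a long non-coding RNA gene and Cep70.

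Igfbp3, which binds insulin-like growth factors and is expressed in endothelial tip cells, was the called gene with opposed effects. It had 11.50, 12.01 and 11.96 in short-term endothelial cells, against 12.38, 12.46 and 12.82 in untreated endothelial cells. Tumour cells had 8.85, 8.41, 7.80 and 8.99 in the short-term group, against 6.77, 7.59 and 7.58 in the untreated group. Both pairs of groups were separate, lower after treatment in endothelial and higher in tumour cells. Neither effect passed alone, with -0.73 ± 0.27 (adjusted p = 0.189) and 1.20 ± 0.25 (adjusted p = 0.0617), while the difference of -1.93 ± 0.37 did (adjusted p = 0.0442).

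**Figure D2:**
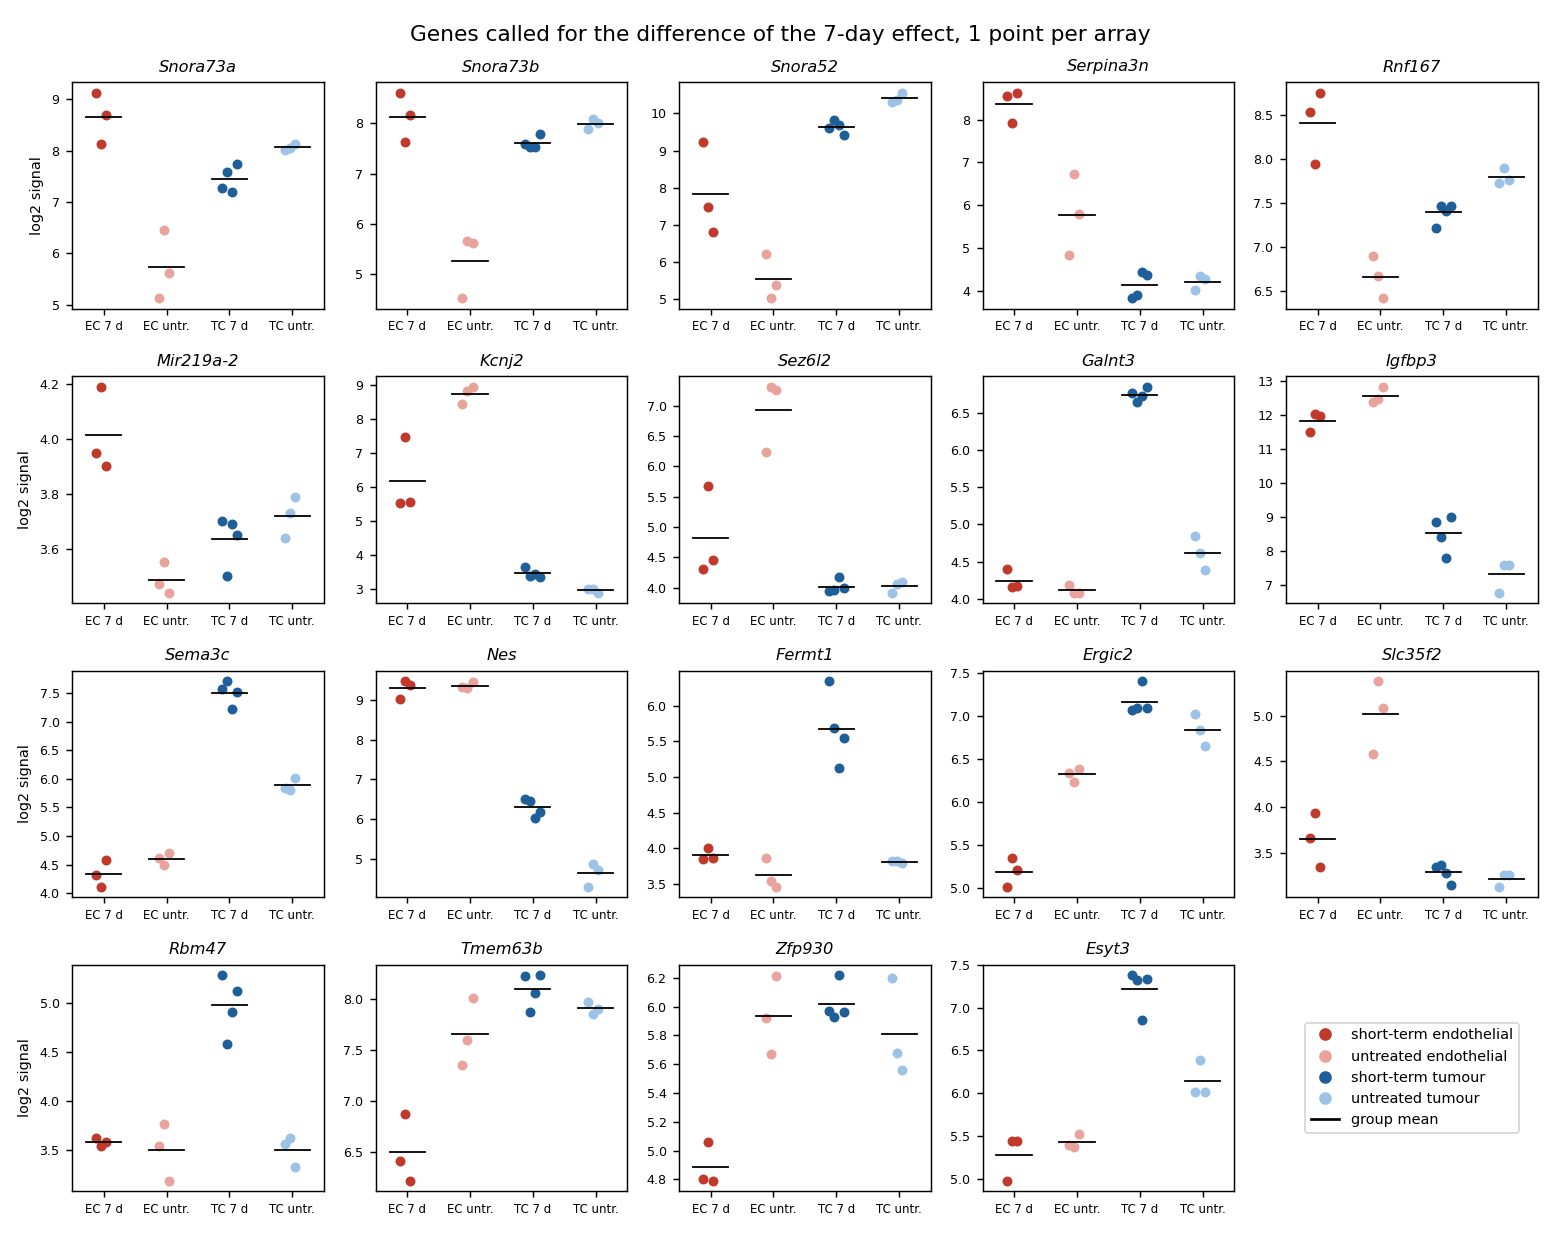
Log2 signal on each of the 13 arrays for the 19 called genes, 1 panel a gene with its own scale, points for arrays and bars for group means (EC, endothelial cells, TC, tumour cells, 7 d, short-term, untr., untreated). In the Galnt3 panel the 4 short-term tumour cell arrays sit at 6.65 to 6.86 and all other arrays at or below 4.85.

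Of the 19 called genes, 13 separated the short-term from the untreated endothelial arrays without overlap and 13 the tumour cell arrays, where 13.8% and 10.2% of all genes did. Both figures follow in part from the choice of genes by the same contrast and support nothing. Another 19 genes had an adjusted p between 0.05 and 0.10. On the positive side these included Cxcl12 (difference 1.72 ± 0.34, adjusted p = 0.0559), a chemokine, Lrrc42 (1.20 ± 0.24, 0.0631) and Rgcc (1.70 ± 0.34, 0.064), a cell cycle regulator induced in endothelial cells. Cxcl12 had 9.47, 8.93 and 9.53 in short-term endothelial cells, against 7.93, 8.35 and 8.11 in untreated endothelial cells, and 6.59, 6.5, 6.44 and 6.5 in short-term tumour cells, against 6.81, 7.10 and 7.24 in untreated tumour cells.

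The promoters of called genes were searched for short motifs, with 13 of the 19 genes found among 15614 promoters of 300 bases in the RefSeq table (GRCm38.p6, 250 bases before to 50 after the start). The hypoxia response core ACGTG, on either strand, was in 4 of the 13 (Kcnj2, Rbm47, Sema3c and Tmem63b) and in 21.7% of all promoters. The AP-1 site TGANTCA was in that of Rnf167 alone and in 6.98% of all, and the patterns TTCNNNGAA (STAT) and GAANNTTC (heat shock element) were in 0 of the 13 and in 7.83% and 6.78% of all. Such a match is a description of letters and not of binding. Shown are the gene with the smallest adjusted p, and a tumour cell and an endothelial gene that hold the ACGTG core. Capitals mark the core, and in Kcnj2 the matches of both strands overlap in CACGTG, beginning 84 and 83 bases before the start. In Sema3c the core begins 45 bases before the start, and in Galnt3 none of the 4 patterns was found. The regions are chr2:66124744-66125043 (Galnt3, minus strand), chr5:17574566-17574865 (Sema3c, plus strand) and chr11:111065914-111066213 (Kcnj2, plus strand).
Galnt3: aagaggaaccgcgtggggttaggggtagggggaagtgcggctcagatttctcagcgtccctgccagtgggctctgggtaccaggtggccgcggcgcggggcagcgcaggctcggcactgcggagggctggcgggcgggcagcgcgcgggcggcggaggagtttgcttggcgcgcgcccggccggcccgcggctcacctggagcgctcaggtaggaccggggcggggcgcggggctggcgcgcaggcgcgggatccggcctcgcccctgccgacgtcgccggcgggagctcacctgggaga
Sema3c: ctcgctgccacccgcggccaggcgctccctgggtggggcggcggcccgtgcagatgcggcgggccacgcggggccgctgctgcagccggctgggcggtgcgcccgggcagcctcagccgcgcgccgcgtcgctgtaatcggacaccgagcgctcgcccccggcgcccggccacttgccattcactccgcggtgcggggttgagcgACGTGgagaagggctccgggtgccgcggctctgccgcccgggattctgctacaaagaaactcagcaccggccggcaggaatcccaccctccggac
Kcnj2: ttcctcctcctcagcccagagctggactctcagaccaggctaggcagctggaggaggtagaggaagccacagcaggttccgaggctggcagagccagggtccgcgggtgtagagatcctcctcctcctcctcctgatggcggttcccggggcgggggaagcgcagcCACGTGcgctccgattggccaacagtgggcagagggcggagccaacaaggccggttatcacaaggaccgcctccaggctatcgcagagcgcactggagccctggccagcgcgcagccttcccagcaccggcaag

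The targets of the drug did not pass for the difference. Among 11 receptor and co-receptor genes of VEGF, FGF and PDGF, 0 were called, 1 was higher and 2 lower at an unadjusted p under 0.05 (27.3% against 11.0% of all genes), and the median was 0.18, with a range of -0.01 to 0.30 in the fits that left out 1 array. Past the unadjusted threshold were Fgfr4 (difference 0.69 ± 0.20, at low signal) on the higher side, and Fgfr1 (-0.59 ± 0.24) and Nrp1 on the lower side. Kdr, the main signalling receptor of VEGF-A, had a difference of 0.06 ± 0.27, Flt1 of 0.12 ± 0.30 and Pdgfrb of -0.03 ± 0.49. Kdr had 9.81, 10.67 and 10.01 in short-term endothelial cells, against 9.85, 10.29 and 10.56 in untreated endothelial cells, with overlap, and 3.70 to 4.11 in tumour cells of both groups. The signs for Kdr, Flt1 and Pdgfrb turned under some settings. Of 14 ligand genes 0 were called and 0 had an unadjusted p under 0.05. Vegfa had a difference of -0.45 ± 0.75. Pdgfc had a tumour cell effect of 2.15 ± 0.84, which did not pass (adjusted p = 0.795).

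Genes of endothelial tip cells, the leading cells of a sprout, held 1 call, Igfbp3, among 21 measured. At an unadjusted p under 0.05, 8 were lower and 1 higher, or 42.9% against 11.0% of all genes. The median of the list was -0.12, and it was -0.32 without untreated endothelial replicate 1 and 0.06 without short-term endothelial replicate 1. Unc5b, a netrin receptor, had 8.04, 7.45 and 6.65 in short-term endothelial cells, against 8.48, 8.51 and 9.35 in untreated endothelial cells. In tumour cells the order of the groups was the reverse, with 6.66, 6.54, 6.42 and 6.46 short-term, against 5.17, 5.46 and 5.45 untreated. Neither pair of groups overlapped, and the difference was -2.56 ± 0.50 (adjusted p = 0.0559). Esm1, a secreted proteoglycan induced by VEGF, had 4.37, 4.12 and 4.38 in short-term endothelial cells, against 5.75, 6.06 and 7.85 in untreated endothelial cells, and tumour cells stayed between 3.14 and 3.52. Its endothelial effect of -2.26 ± 0.50 and that of Apln (-1.77 ± 0.39), a peptide ligand gene, passed in the fit over all arrays (adjusted p = 0.045 and 0.0434), but their differences of -2.18 ± 0.68 and -1.38 ± 0.53 did not. Rgcc was the member that was higher at an unadjusted p under 0.05.

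Notch signalling restrains tip cells and specifies arteries. Of 17 arterial and Notch pathway genes 0 were called for the difference. At an unadjusted p under 0.05, 2 were lower (11.8%), where 4.22% of all genes were lower and 11.0% passed in either direction. Both, Nrarp and Hey1, are Notch targets, while the targets Hes1, Hey2 and Heyl had positive differences of 0.29, 0.16 and 0.12 that did not pass. Nrarp had 6.97, 7.42 and 6.22 in short-term endothelial cells, against 8.40, 8.20 and 8.49 in untreated endothelial cells, and Hey1 had 6.67, 7.05 and 7.61, against 8.72, 10.16 and 9.10. Their endothelial effects of -1.49 ± 0.23 and -2.22 ± 0.39 passed (adjusted p = 0.00487 and 0.0098), and the differences of -1.58 ± 0.32 and -1.88 ± 0.53 did not (adjusted p = 0.0625 and 0.223). The ligand gene Dll4 had a difference of -0.15 ± 0.34.

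Pericyte and smooth muscle markers, cells that wrap vessels and could be carried into the sort, were split. Of 13 measured, 4 were higher and 2 lower at an unadjusted p under 0.05 (46.2% against 11.0%), 0 were called, and the median was 0.15 (0.08 to 0.33 without 1 array). Tagln, a smooth muscle actin-binding protein gene, had 6.84, 5.95 and 6.08 in short-term endothelial cells, against 5.49, 5.11 and 4.42 in untreated endothelial cells, and 3.83 to 4.35 in tumour cells. Abcc9, a subunit of a potassium channel of mural cells, had 6.66, 8.54 and 7.54 in short-term endothelial cells, against 8.75, 9.81 and 10.23 in untreated endothelial cells, and 4.25 to 4.69 in tumour cells. Their endothelial effects, 1.29 ± 0.25 and -2.02 ± 0.36, were called in opposite directions, and their differences, 1.17 ± 0.34 and -1.91 ± 0.49, did not pass (adjusted p = 0.24 and 0.19). Myeloid cells may also enter a sort: 18 of 19 macrophage markers had negative differences, with a median of -1.14 and 0 called. At an unadjusted p under 0.05, 2 were lower (10.5%), Ctss and C1qb. Of all genes, 4.22% were lower and 11.0% passed in either direction. Lyz2 had 4.81, 6.81 and 6.87 in short-term endothelial cells, against 11.42, 9.28 and 9.06 in untreated endothelial cells. In tumour cells it scattered widely, with 4.82, 3.99, 9.35 and 8.02 short-term, against 8.29, 5.81 and 7.66 untreated. Its difference of -3.05 ± 1.72 passed neither threshold (adjusted p = 0.528). The list median was -0.33 without untreated endothelial replicate 1, the array highest in these markers, and the part of such cells in the other differences was not tested.

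Proliferation genes had lower median values after treatment in both cell types, with the larger median effect in endothelial cells. All 35 measured mitosis genes had negative effects in endothelial cells, with a median of -0.90, and 32 had negative effects in tumour cells, with a median of -0.35. The difference was negative in 32 of 35 with a median of -0.52, but 0 genes were called for it. At an unadjusted p under 0.05, 4 were lower (11.4%), where 4.22% of all genes were lower and 11.0% passed in either direction. Top2a, the DNA topoisomerase of dividing cells, had 5.49, 5.92 and 5.98 in short-term endothelial cells, against 7.43, 7.36 and 7.82 in untreated endothelial cells. Tumour cells had 7.16, 7.37, 7.31 and 7.64, against 7.75, 7.74 and 7.5. The endothelial groups were more than 1 unit apart and the tumour cell groups overlapped, yet the difference of -1.45 ± 0.41 did not pass (adjusted p = 0.227). For Arhgap11a, a regulator of RhoA in cytokinesis, the values were 4.02, 3.89 and 4.26, against 5.35, 5.39 and 5.33 in endothelial cells, with a difference of -0.90 ± 0.26 (adjusted p = 0.231). Both endothelial effects passed, -1.74 ± 0.30 and -1.30 ± 0.19. Over 29 DNA replication genes the medians were -0.31 in endothelial and -0.19 in tumour cells, and the median difference was -0.19. It was -0.02 without untreated endothelial replicate 1, and -0.26 to -0.02 over all fits without 1 array.

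Immediate early genes, induced within minutes by growth factors and also by tissue dissociation, had positive median effects in both cell types. The medians of 23 genes were 0.63 in endothelial and 0.64 in tumour cells, 22 effects were positive in each, and the median difference was 0.01 with 0 called. That median difference was 0.24 without untreated endothelial replicate 1 and -0.12 without short-term endothelial replicate 1. Egr1 passed in endothelial cells (1.24 ± 0.26) and Dusp1 in tumour cells (1.32 ± 0.20), with differences of 0.99 ± 0.35 and -0.67 ± 0.29 that did not pass. The cytosolic chaperone gene Hspa1a, singled out after its values were seen, changed by 1.62 ± 0.28 in endothelial and 1.63 ± 0.26 in tumour cells, a difference of -0.01 ± 0.39. Of the 13 heat shock genes 12 had negative differences, with a median of -0.19 (-0.45 to -0.05 without 1 array) and 0 at an unadjusted p under 0.05.

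Genes of the unfolded protein response, which adjusts folding capacity in the endoplasmic reticulum, had medians of -0.06 in endothelial and 0.22 in tumour cells. Of 20 genes 15 had negative differences, 0 were called and 5 (25.0%) were lower at an unadjusted p under 0.05, where 4.22% of all genes were. Pdia6, a protein disulfide isomerase gene, had 8.52, 8.72 and 8.70 in short-term endothelial cells, against 9.13, 9.64 and 9.44 in untreated endothelial cells. Tumour cells had 9.51, 9.49, 9.29 and 9.32, against 9.05, 9.30 and 8.97. The difference was -1.06 ± 0.24 (adjusted p = 0.122).

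**Figure D3:**
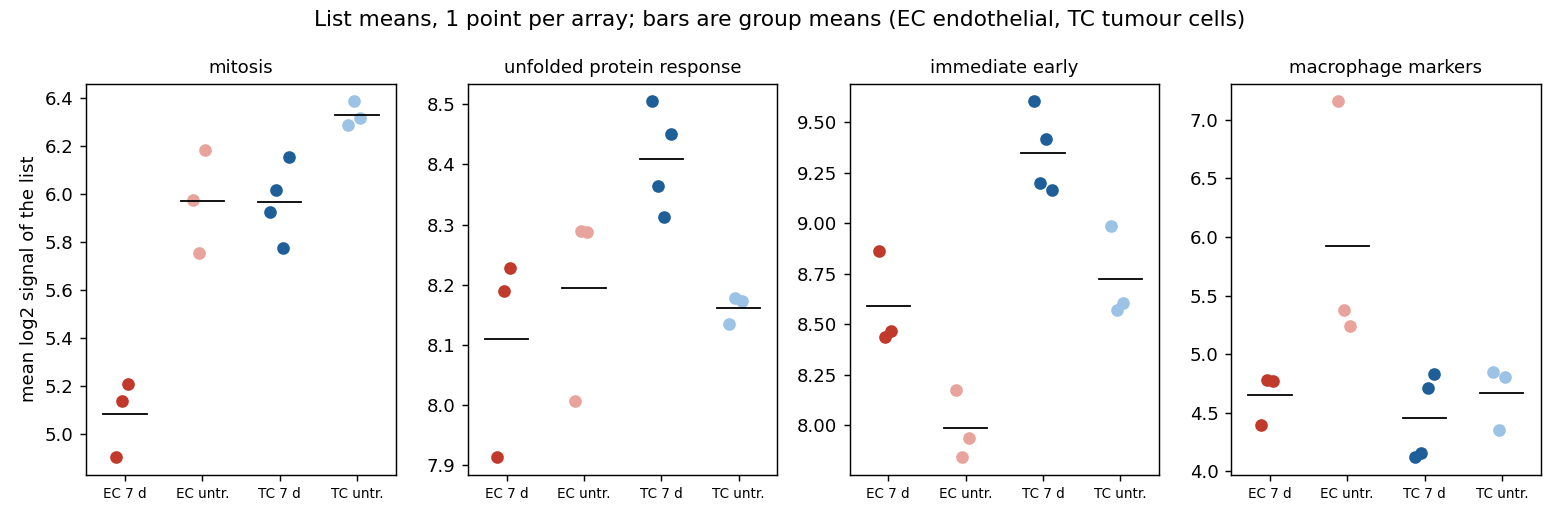
Mean log2 signal of 4 gene lists on each of the 13 arrays, points for arrays and bars for group means (EC, endothelial cells, TC, tumour cells). Mitosis means are 4.90 to 5.21 in short-term and 5.75 to 6.18 in untreated endothelial arrays, and 5.78 to 6.15 and 6.28 to 6.39 in short-term and untreated tumour arrays, while macrophage markers are highest in 1 untreated endothelial array at 7.16.

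Metabolic genes gave no call either. Over 18 glycolysis genes the median effects were 0.06 in endothelial and 0.19 in tumour cells, and over 23 hypoxia genes 0.04 and 0.22. The glycolysis genes had a median difference of -0.12 (-0.19 to -0.04 without 1 array), with 1 gene higher and 3 lower at an unadjusted p under 0.05 (22.2% against 11.0% of all genes). Of the hypoxia genes 16 had negative differences, with a median of -0.34 (-0.38 to -0.18 without 1 array), and 1 was higher and 2 were lower at that threshold. Pfkp, the platelet-type phosphofructokinase gene, had 6.12, 5.99, 6.26 and 6.36 in short-term tumour cells, against 4.96, 4.69 and 4.80 in untreated tumour cells. In endothelial cells it had 6.90, 7.30 and 5.79, against 6.62, 7.34 and 7.31, with overlap. Its difference of -1.79 ± 0.42 did not pass (adjusted p = 0.128). Lactate and glucose transporter genes also stayed below the threshold, with differences of -1.12 ± 0.55 for Slc16a1, 0.61 ± 0.59 for Slc16a3 and 0.90 ± 0.51 for Slc2a1. The endothelial value of Slc2a1 rested on replicate 3, with 9.23, 9.30 and 11.32 in short-term cells, against 8.88, 8.49 and 8.89 in untreated cells. Over all 34 lists, whose 522 measured genes were chosen with earlier results of these data known, Igfbp3 and Serpina3n were the called genes, and 32 lists held 0. The 20 lists not described here had medians between -0.29 and 0.48.

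**Figure D4:**
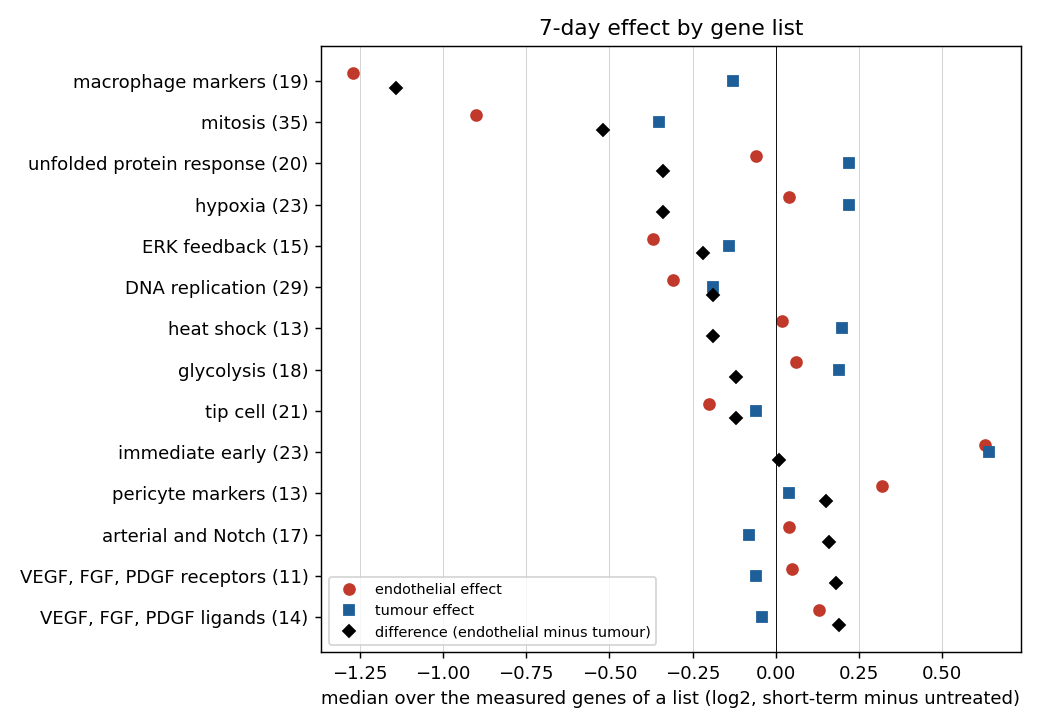
Median short-term minus untreated log2 change over the measured genes of 14 lists (number in brackets), in endothelial cells (circles), in tumour cells (squares), and the median of the gene-wise differences (diamonds). Macrophage markers and mitosis genes have the lowest median differences, -1.14 and -0.52, and the immediate early genes have medians of 0.63 and 0.64 with a median difference of 0.01.

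After 21 days of treatment the same contrast, which shares its untreated arrays with the 7-day one, gave these values. For Galnt3 the tumour cell effect was 2.14 at 7 days and -0.14 at 21 days, and for Nes it was 1.66 and -0.29. Fermt1 had 1.87 and -0.26, Rbm47 1.48 and 0.34, and Esyt3 1.08 and 0.25. Among these 6 genes Sema3c had the largest 21-day effect in tumour cells, with 1.62 at 7 days and 1.22 at 21 days, which passed at both times (adjusted p = 0.00178 and 0.0388). Endothelial effects of Snora73a were 2.92 at 7 days and 2.29 at 21 days, those of Snora73b 2.87 and 2.43, and those of Snora52 2.30 and 2.09. Serpina3n had 2.58 and 1.68, Rnf167 1.75 and 0.47, and Mir219a-2 0.53 and 0.23. On the lower side Sez6l2 had -2.12 and -1.92, Slc35f2 -1.36 and -0.88, Kcnj2 -2.55 and -0.74, Zfp930 -1.05 and -0.40, Ergic2 -1.12 and -0.35, and Tmem63b -1.15 and -0.06. By limma over all arrays, 21-day endothelial effects passed for Snora73a (adjusted p = 0.0131), Snora73b (0.00548), Snora52 (0.0251) and Serpina3n (0.0337). Those of Sez6l2 (0.00548) and Slc35f2 (0.0384) passed too, while the other genes with the larger 7-day endothelial effect did not pass at 21 days. Igfbp3 had endothelial effects of -0.73 and -0.24 and tumour cell effects of 1.20 and 0.91. The smallest adjusted p for the 21-day difference among the 19 genes was 0.207, shared by the 3 small nucleolar RNAs and Sez6l2. None of the 19 was therefore called for the difference at 21 days, and the count over all genes is not given here. Whether the 7-day and 21-day effects differ from each other was not tested.

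**Figure D5:**
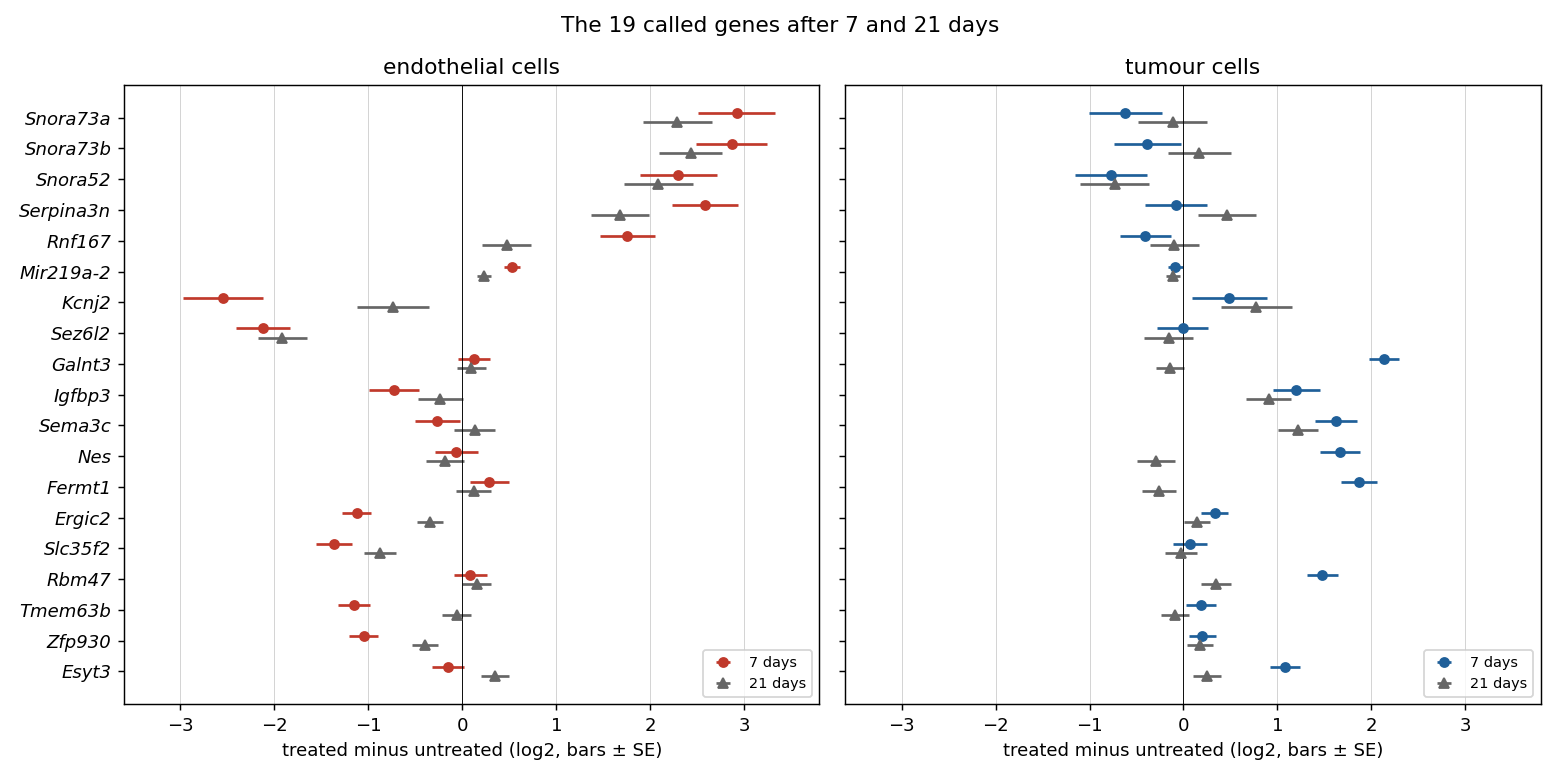
Treated minus untreated log2 change (points, with bars of ± 1 SE) of the 19 called genes after 7 days (circles) and 21 days (triangles), in endothelial cells on the left and tumour cells on the right. Galnt3 in tumour cells is at 2.14 after 7 days and -0.14 after 21 days, and Snora73a in endothelial cells is at 2.92 and 2.29.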

How the data were processed

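Gene expression was measured on 23 arrays, 1 a sample. The table deposited by the authors holds a log2 signal for each transcript cluster. It was made with RMA and oligo, per the submitters' processing notes, in versions the sources used here do not name, from targets made with NuGEN kits, per the labels. RMA equalises the arrays, so differences in total RNA are not seen. The number of arrays limits the precision.

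Of 35556 clusters, 21789 named 1 gene in the platform annotation, 1621 named several and 12146 were not listed there. Symbols were updated through RefSeq (GRCm38.p6), which held 21698. For 999 genes with several clusters the cluster of highest mean over the 23 arrays was taken, leaving 19938 genes with no filter on dim clusters.

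The difference, (short-term minus untreated endothelial) minus (short-term minus untreated tumour), was tested with limma 3.58.1 in R 4.3.3 on 6 group means over all 23 arrays, with no replicate block. Tests were two-sided, adjusted by Benjamini-Hochberg over all genes, with calls at an adjusted p under 0.05. Errors are limma's standard errors, from 1 spread per gene shared by both cell types. With each cell type fitted alone, the endothelial error was 0.50 for Snora73a and 0.45 for Serpina3n, against 0.41 and 0.35 here. For Galnt3 the endothelial error was 0.11 alone and 0.17 here, and the tumour cell error 0.19 and 0.16. The p-values measure the spread between the samples of all 6 groups. The fit was tested on simulated data with independent noise on each array and known effects in short-term endothelial arrays. That simulation held no outlying array and no mixture of cell types, so it does not bear on how far single arrays moved the counts.

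Members, gene lists and tests were chosen with earlier results of these data known. Named are up to 12 called genes a direction, without predicted genes, small RNAs and olfactory receptors, filled to 5 by the smallest p, up to 4 members per described list, and a fixed panel. Named outside this rule, after their values were seen, are Esyt3, Mir219a-2, Snora52, Snora73a, Snora73b, Hspa1a, Rplp2, Hes1, Hey2 and Heyl. An effect was taken as the larger one where it was at least 2 times the other.

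Alternatives were other arrays, filters, prior variances, weights, scalings, covariates and replicate blocks, and leaving out each array.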

Additional observations from a re-analysis of the deposited data

Results flagged for a closer look

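For the 19 called genes the 7-day effect differed between endothelial and tumour cells by limma's test of the difference. The differences were 3.54 for Snora73a, 3.25 for Snora73b, 3.07 for Snora52, 2.66 for Serpina3n, 2.16 for Rnf167 and 0.61 for Mir219a-2. On the negative side they were -3.04 for Kcnj2, -2.11 for Sez6l2, -2.01 for Galnt3, -1.93 for Igfbp3, -1.89 for Sema3c, -1.73 for Nes, -1.58 for Fermt1, -1.45 for Ergic2, -1.43 for Slc35f2, -1.39 for Rbm47, -1.33 for Tmem63b, -1.25 for Zfp930 and -1.23 for Esyt3.

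In the group of 4 short-term tumour cell arrays, 7 of the 89 genes checked had 1 array far from the others by Dixon's criterion, which chance meets in about 1 of 20 groups. Replicate 3 stood apart for Ergic2 (7.41), Zfp930 (6.22), Cnn1 (3.73), Hk2 (5.17) and Esyt3 (6.86). Replicate 1 stood apart for Tpx2 (5.86) and Ak4 (4.98).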

How the results depend on the processing

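Under 39 alternatives 0 of the 19 called genes changed direction. They were chosen by the same contrast and the alternatives reuse the same arrays, so a change of direction was unlikely from the start. Of the 733 values of these genes, 421 stayed past the threshold and 312 did not. The count of 19 became 8 with the 13 arrays of the contrast alone, 11 with array weights, 10 with a weight per cell type, 4 with the macrophage marker mean and 3 with the immediate early gene mean as a covariate, none of these 3 among the 19, and 1 to 138 without 1 array. Both covariate means separated short-term from untreated endothelial arrays, and the immediate early mean separated the tumour arrays too. Same-numbered arrays were treated as unpaired, since the labels do not name the animals. Deviations of 11 same-numbered pairs of tumour and endothelial arrays correlated at -0.11 to 0.064, which cannot settle whether a pair shares a mouse. With the replicate number as a replicate block 9 genes were called, and with a replicate block by treatment limma called 0, with 1644 at an unadjusted p under 0.05.

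The endothelial count of 106 became 65 with the 13 arrays, 19 with array weights, 17 with a weight per cell type, 166 after renewed quantile normalization, 48 and 231 with the macrophage and immediate early covariates, 189 without the 3 arrays high in macrophage markers, 0 with the endothelial arrays alone and 54 to 800 without 1 array. The tumour cell count of 30 became 157 with array weights, 177 with a weight per cell type, 1 with the immediate early covariate, 101 with the tumour cell arrays alone and 16 to 36 without 1 array. Fits of 1 cell type alone and without those 3 arrays were chosen after seeing the data. Why the counts moved was not tested.

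Of the uncalled named genes, differences turned sign with the immediate early covariate for Dnajb1 (0.171), Pdgfa (-0.064), Pdgfc (0.936), Pdgfrb (0.158), Dll4 (0.423) and Slc16a3 (-0.316). With the macrophage covariate they did for Kdr (-0.214), Flt1 (-0.12), Pdgfrb (0.343), Angpt2 (-0.17) and Vegfa (0.761), without the 3 arrays for Kdr (-0.133), Flt1 (-0.01) and Vegfa (0.293), and after renewed quantile normalization for Pdgfrb (0.095). Without 1 array, ranges spanned 0 for Kdr (-0.195 to 0.236), Flt1 (-0.056 to 0.371), Pdgfrb (-0.289 to 0.242), Angpt2 (-0.284 to 0.797), Dll4 (-0.39 to 0.085), Hk2 (-0.424 to 0.009) and Vegfa (-1.047 to 0.293). The cause was not tested.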
